A study of Saccharomyces cerevisiae with 14 samples.

Results

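The shift of the strain ratio between 24 and 48 h post-induction was measured in engineered Saccharomyces cerevisiae on 9 of the 14 dual-colour cDNA slides of the series, as the labels assign them: 4 slides of 24 h (replicates A to D) and 5 slides of 48 h (replicates A to E). On every slide, cDNA of EPY330 (Alexa555) and of EPY338 (Alexa647) was hybridized together, and the ratio per ORF is given here as log2(EPY330/EPY338), so that values above 0 mean more transcript in EPY330 than in EPY338. Both strains are BY4742 derivatives (MATα his3Δ1 leu2Δ0) in which lys2Δ0 and ura3Δ0 were repaired, and both carry the truncated HMG-CoA reductase tHMGR, the upc2-1 allele and ERG20 behind the GAL1 promoter and ERG9 behind the MET3 promoter. Both also hold a pESC-Leu2d plasmid with the plant genes ADS, AMO and CPR. EPY330 has the active amorphadiene oxidase AMO and makes artemisinic acid, whereas the AMO of EPY338 is inactivated by a point mutation, so that this strain is left with the precursor amorphadiene. Cells were induced in a rich galactose medium that held a little glucose (YPG), and RNA of 5 transformants per strain was pooled at each time. The slides of a time point are therefore repeat hybridizations of a single pool of each strain, the p-values below measure the spread between slides and not between cultures, and the transformants were the same at both times.

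The comparison asks which transcripts changed their ratio between the strains as the cultures went from 24 to 48 h. A difference of 48 h minus 24 h of 1 is a 2-fold higher ratio at 48 h. It may come from a rise in EPY330 or from a fall in EPY338, and these cannot be told apart in a ratio within a slide, nor can a change in the share of cells that hold a transcript be told from a change per cell. The dyes were never swapped, and a dye effect of an ORF that is the same at both times drops out of the difference. Of the 6040 ORFs listed, 5672 had a value on at least 3 slides at both times and were tested, and 5047 of these had a value on all 9 slides.

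As background, yeast that has used up its sugar moves to respiration of ethanol and acetate. Genes for acetate uptake, the glyoxylate cycle, gluconeogenesis and peroxisomal beta-oxidation, which glucose represses, are then transcribed, and the general stress regulators Msn2 and Msn4 and the entry into stationary phase bring up small protective proteins such as Hsp12. Genes for the use of maltose and isomaltose sit in clusters near chromosome ends, beside members of the hexose transporter family. Export of drugs and of lipophilic acids is governed by the pleiotropic drug resistance (PDR) network, in which the regulators Pdr1 and Pdr3 drive ATP-binding-cassette pumps such as Pdr5 and Snq2. HXT9 and HXT11 are known targets of the same regulators.

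All 9 slides were centred near 0, with medians over ORFs from -0.020 to -0.0018, and their SD over ORFs ranged from 0.53 to 0.88. Slides did not group by time alone. Pearson's r over ORFs, which share the slides and are not independent, was 0.364 to 0.885 for pairs of slides of the same time and 0.506 to 0.833 for pairs of different times. By the deviations from the time means, slides fell into 3 sets, replicate A of both times, replicate C of 24 h with B of 48 h, and all the other slides, a split found in these data and not given by the labels. Because the time means were taken out first, time could not define a set, and sets of mixed times say nothing about an effect of time. All 3 sets hold slides of both times, so the 48 h minus 24 h difference is also given within each set where it bears on a result.

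In limma with Benjamini-Hochberg adjustment over all ORFs tested, 31 ORFs passed an adjusted p of 0.05 (0.547% of those tested). The ratio rose in 19 (0.335%) and fell in 12 (0.212%). An unadjusted p below 0.05 was reached by 315 ORFs, and in 172 ORFs (3.03%) the 48 h slides lay entirely above or entirely below the 24 h slides. All 31 ORFs belonged to the latter. Each of the 3 slide sets holds slides of both times, so without overlap the sign within a set had to be that of the whole. Of the 12 ORFs that fell, 7 were maltose and isomaltose genes and 1 was the hexose transporter gene HXT9. The 19 that rose included stress genes, transporters of acetate and ammonium and metallothionein genes. The calls depended on single slides. Without replicate D of 24 h, 8 of the 31 still passed, and without replicates A, B and C of that time 18, 14 and 20 did. When replicates C, D or E of 48 h were left out, 21, 21 and 23 did. Without replicate A of 48 h, 28 of the 31 passed among 33 calls, and without B of 48 h all 31 passed among 62 calls. The ORFs that passed under each of these 9 omissions were SPG4 and CIT3, which rose, and HXT9, MAL12, IMA1, MAL32, IMA2 and IMA5, which fell. With the slide set as a block in the fit, an alternative chosen after seeing the data and with sets found in the same values, 90 ORFs passed, among them all 31 and 23 of the 61 other ORFs named below. Because the sets were drawn from the spread that this fit then removes, its p-values tend to be too small and are no second test. No adjusted p of that fit is therefore given for a single ORF.

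**Figure D1:**
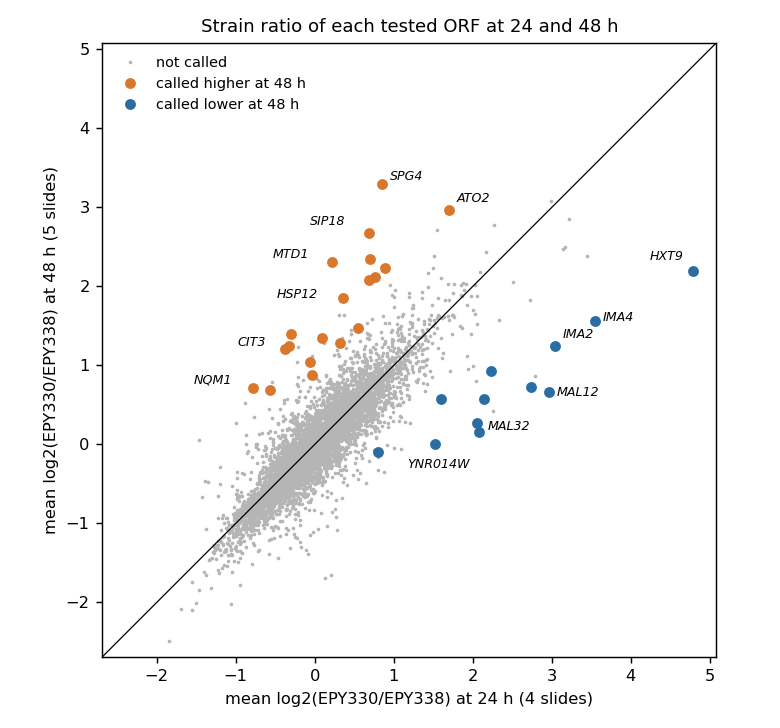
Mean log2(EPY330/EPY338) of each of the 5672 tested ORFs at 24 h (x axis, up to 4 slides) and at 48 h (y axis, up to 5 slides), with the line of equal ratio. The 19 ORFs called higher lie above the cloud, SPG4 at the top, and the 12 called lower lie to its right, HXT9 farthest out.

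The strain ratio of the disaccharide-cleaving enzymes fell. Of the 11 ORFs in the list of maltose and isomaltose genes, 7 fell and 0 rose, compared with 0.212% of all ORFs that fell, and the median difference was -1.78 compared with -0.020 over all ORFs tested. The lists were chosen with earlier results of these data known, so this count and those of the lists below are descriptive and test nothing. The 7 were all of the enzymes in the list, the maltases MAL12 and MAL32 and the isomaltases IMA1 to IMA5. The other 4 members, which are the permeases MAL11 and MAL31 and the transcriptional activators MAL13 and MAL33, did not pass.

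MAL12 (YGR292W), a maltase, had log2 ratios of 2.74, 2.90, 3.26 and 2.94 on the 24 h slides A to D and of 0.99, 0.34, 0.97, 0.57 and 0.47 on the 48 h slides A to E. All 4 slides of 24 h were far above the highest of the 48 h slides. The difference was -2.29 (SE 0.20, adjusted p = 0.000158), a ratio 4.9-fold lower at 48 h. For the paralog MAL32 (YBR299W), the 24 h slides gave 1.86, 2.02, 2.11 and 2.33 and the 48 h slides 0.27, 0.28, 0.23, -0.13 and 0.14. The ratio of MAL32 thus went from about 4-fold in favour of EPY330 to near parity, with no overlap between the times. The difference was -1.92 (SE 0.17, adjusted p = 0.000166).

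The isomaltases split the alpha-1,6 bond of isomaltose, and IMA4 and IMA2 had the highest 24 h means among the 7 enzymes. IMA4 (YJL221C) had 3.37, 3.64, 3.57 and 3.58 at 24 h and 1.18, 0.60, 1.78, 2.01 and 2.27 at 48 h. IMA2 (YOL157C) had 3.02, 3.28, 2.99 and 2.86 at 24 h and 1.20, 1.17, 1.59, 1.53 and 0.74 at 48 h. In both, every 48 h slide was below every 24 h slide, and most of the 48 h slides still had a ratio above 1 on the log2 scale. The differences were -1.97 (SE 0.30, adjusted p = 0.0126) for IMA4 and -1.79 (SE 0.21, adjusted p = 0.00165) for IMA2.

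IMA1 (YGR287C) had 2.81, 2.80, 2.37 and 2.97 at 24 h and 0.62, -0.12, 1.26, 0.89 and 0.98 at 48 h. IMA5 (YJL216C) had 2.24, 1.99, 1.56 and 2.43 and 0.41, 0.037, 0.74, 0.22 and -0.017 at these times. In IMA3 (YIL172C) the values were 2.05, 1.84, 2.81 and 1.84 and 0.15, 0.069, 0.96, 0.77 and 0.91. The 48 h slides of these 3 isomaltases came down to between -0.12 and 1.26, and replicate B of 48 h was the lowest or next to the lowest slide in each. The differences were -2.01 (SE 0.26, adjusted p = 0.00444) for IMA1, -1.78 (SE 0.23, adjusted p = 0.00406) for IMA5 and -1.56 (SE 0.27, adjusted p = 0.0183) for IMA3. IMA4 no longer passed without replicate D of 24 h, and IMA3 no longer passed when replicate A, B, C or D of 24 h was left out. These enzymes are close in sequence to each other, as are both maltases, and a spot of one may bind cDNA of another, so the members are not independent measurements.

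The remaining members of the maltose loci lie beside these enzymes. MAL11, the permease gene next to MAL12 on chromosome VII, had -0.81 to 0.19 at 24 h and -1.50 to 0.20 at 48 h. MAL31, the permease gene with 1 annotated gene between it and MAL32 on chromosome II, had 0.0044 to 0.26 and -0.29 to 0.36. Slides of both times overlapped in each, with differences of -0.39 (adjusted p = 1) and 0.040 (adjusted p = 1). The activator genes MAL13 and MAL33 had differences of -0.40 (adjusted p = 1) and -0.65 (adjusted p = 0.963), also with overlapping slides. A test of the enzymes against the permeases was not made.

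The hexose transporter family held the ORF with the largest fall. Of 18 tested members of the list of hexose transporters and sensors, 1 fell and 0 rose, compared with 0.212% of all ORFs that fell, and the median difference was -0.14. The member that fell was HXT9 (YJL219W), with 4.14, 5.42, 4.45 and 5.13 at 24 h, the highest mean ratio of all ORFs in the plot of the ratios at both times, and 1.75, 1.28, 2.42, 2.51 and 2.99 at 48 h. The lowest 24 h slide was above the highest 48 h slide by 1.15, and the difference of -2.59 (SE 0.35, adjusted p = 0.00607) gave a 6.04-fold lower ratio.

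HXT11, close in sequence to HXT9, had 1.40, 3.98, 1.43 and 2.20 at 24 h and -0.015, 0.60, 0.39, 0.43 and 0.74 at 48 h. These slides did not overlap, but the 24 h values spread widely, and the difference of -1.82 (SE 0.44) missed the threshold with an adjusted p of 0.134. HXT12, an ORF of the same subfamily outside the list, had 1.79, 4.34, 1.69 and 3.30 and 0.15, 0.31, 1.23, 0.72 and 1.94. Its slides overlapped, and the difference was -1.91 (SE 0.52, adjusted p = 0.236). In HXT9, HXT11 and HXT12 alike, replicates B and D of 24 h, which belong to 1 slide set, were the highest slides. Cross-hybridization among these 3 ORFs cannot be resolved with 1 value per ORF.

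Among the other transporters, HXT5, which encodes a carrier of slow-growing and starved cells, had -0.96, -0.42, -0.88 and -1.75 at 24 h and -0.26, -0.071, 0.55, 0.62 and 0.51 at 48 h. Every 48 h slide was above every 24 h slide, with a difference of 1.27 (SE 0.28), and the adjusted p of 0.0794 missed the threshold. HXT1, the low-affinity carrier that lies next to HXT5 on chromosome VIII, had a difference of -0.61 (adjusted p = 0.939) with overlapping slides. HXT4, with values on 3 slides of 24 h, had -0.94 (adjusted p = 0.535). The differences of all 18 members lay between -2.59 and 1.27.

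Several of these ORFs are neighbours on their chromosomes. In the order of the RefSeq annotation, HXT9 and IMA4 on chromosome X, HXT11 and IMA2 on chromosome XV, and HXT8 and IMA5 on chromosome X each have no annotated gene between them. HXT12 and IMA3 on chromosome IX are separated by YIL171W alone, whose difference was -1.24 (adjusted p = 0.117). Whether the YIL171W spot reports a transcript apart from that of HXT12 was not tested. HXT8 had 0.29 to 0.74 at 24 h and -0.16 to 0.38 at 48 h, with a difference of -0.40 (adjusted p = 0.889). The annotation was used for names and gene order only.

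**Figure D2:**
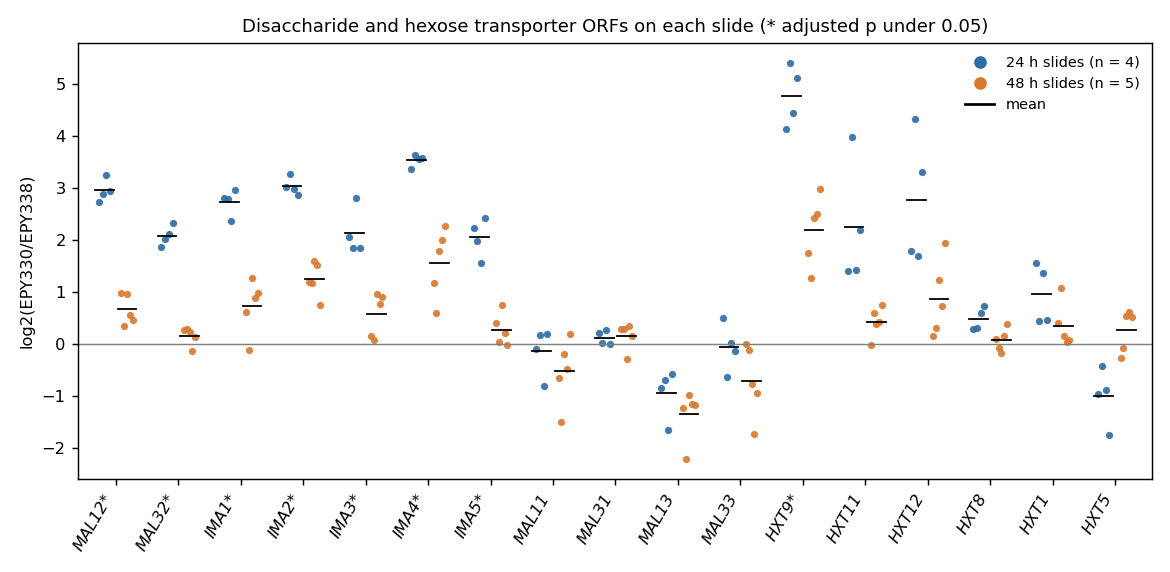
Log2(EPY330/EPY338) of maltose, isomaltose and hexose transporter ORFs on each slide (y axis), with 4 slides of 24 h in blue, 5 slides of 48 h in orange and the mean as a bar. The 7 enzymes and HXT9, marked with an asterisk, passed the test and have no overlap between the times, while the permeases and activators MAL11, MAL31, MAL13 and MAL33 overlap.

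The other ORFs that fell have unrelated roles. YNR014W, an uncharacterized ORF, had 1.60, 1.70, 1.29 and 1.50 at 24 h and -0.51, -0.45, 0.30, 0.53 and 0.17 at 48 h. It went from a ratio above 1 on all slides to a mean of 0.0073, with a difference of -1.52 (SE 0.24, adjusted p = 0.0126). MMS21 (YEL019C), which encodes the SUMO ligase of the Smc5-Smc6 complex, had 2.02, 1.86, 2.27 and 2.76 and 0.95, 1.48, 1.19, 0.48 and 0.54. The difference was -1.30 (SE 0.25, adjusted p = 0.0444). UTP20 (YBL004W), a factor of small ribosomal subunit assembly, had 1.78, 1.23, 1.85 and 1.52 and 0.60, 0.30, 0.62, 0.68 and 0.65, and the difference was -1.02 (SE 0.19, adjusted p = 0.0273). MRP4 (YHL004W), a protein of the small mitochondrial ribosomal subunit, had 0.63 to 0.89 at 24 h and -0.26 to 0.10 at 48 h, with a difference of -0.89 (SE 0.16, adjusted p = 0.0307). None of these 4 had overlapping slides. UTP20 was the member that passed among 96 ribosome assembly factors (median 0.089), and MRP4 that among 60 mitochondrial ribosomal proteins (median -0.055). Over all ORFs tested 0.212% fell, and 1 call in a list is not read as a result about the list.

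Next in order of p among the ORFs with a negative difference were 3 that missed the threshold. YMR086C-A had -0.81 (adjusted p = 0.0512), HMG2, which encodes an isozyme of HMG-CoA reductase, had -0.90 (adjusted p = 0.0664), and YJL175W had -1.08 (adjusted p = 0.0698). Their slides did not overlap. HMG2 had 0.67, 0.62, 0.73 and 0.74 at 24 h and -0.59, -0.51, 0.068, -0.011 and 0.0052 at 48 h, so that 24 h slides lay within a narrow band and the 48 h slides of replicates A and B stood below the others.

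Several genes of stationary phase and general stress rose. Of 27 tested members of that list, 4 rose and 0 fell, compared with 0.335% of all ORFs that rose, and the median difference was 0.27. The median was -0.011 within the set of both replicates A, 0.23 within the largest set and 0.17 within that of 24 h C and 48 h B. The 4 were SPG4, HSP12, SIP18 and HOR7. SPG4 (YMR107W), a gene required for survival at high temperature in stationary phase, had 0.85, 0.77, 0.82 and 0.95 at 24 h and 2.98, 3.18, 3.33, 3.58 and 3.40 at 48 h. The slides of each time were close together and 2.02 apart between the times, and the difference of 2.44 (SE 0.17, adjusted p = 2.96e-05) was the largest rise and had the lowest p of all ORFs, a 5.44-fold higher ratio.

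HSP12 (YFL014W), which encodes a small membrane-stabilizing heat shock protein, had 0.36, 0.17, 0.51 and 0.40 at 24 h and 1.45, 1.34, 2.02, 2.08 and 2.40 at 48 h. SIP18 (YMR175W), a hydrophilin of desiccation and osmotic stress, had 0.51, 0.50, 0.91 and 0.84 and 2.74, 1.60, 3.35, 3.45 and 2.24. The 48 h values of SIP18 ranged widely, with replicate B lowest, and still lay above all the 24 h values, as did those of HSP12. The differences were 1.50 (SE 0.23, adjusted p = 0.0126) and 1.99 (SE 0.34, adjusted p = 0.018). HOR7 (YMR251W-A), a small protein of the hyperosmotic response, had 0.44 to 0.67 at 24 h and 1.01 to 1.73 at 48 h, and its difference of 0.92 (SE 0.18) was just inside the threshold with an adjusted p of 0.0496. Without replicate A, B or D of 24 h, 2, 1 and 1 members passed, SPG4 among them each time, and without B of 48 h 5 did.

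SPG1, a further gene of stationary phase survival, had -0.30, -0.41, -1.18 and -0.26 at 24 h and 0.49, 0.15, 1.27, 0.76 and 1.27 at 48 h, with a difference of 1.32 that missed the threshold (adjusted p = 0.0645). CTT1, the cytosolic catalase, had 0.64 (adjusted p = 0.307). Slides of both genes did not overlap. The transcripts of the regulators in the list did not pass. MSN2 had a difference of 0.27, MSN4 of -1.12, XBP1 of -0.27, GIS1 of 0.0031 and RIM15 of -0.27, and the lowest adjusted p among these 5 was 0.661. MSN4 had values on 4 of the 48 h slides, at -2.31 to -0.43, against -0.59 to 0.33 at 24 h. TMA10 (YLR327C), a ribosome-associated protein outside the list, had 1.03, 0.82, 0.95 and -0.046 and 2.22, 1.90, 2.12, 2.38 and 1.79, with no overlap and a difference of 1.39 (SE 0.24, adjusted p = 0.0187).

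Plasma membrane transporters of acetate and ammonium rose. ATO2 (YNR002C), which encodes a putative ammonium exporter, had 1.79, 1.87, 1.45 and 1.70 at 24 h and 2.87, 2.57, 3.14, 3.38 and 2.87 at 48 h. It was already over 2-fold higher in EPY330 on every 24 h slide, unlike the other 18 ORFs that rose, whose 24 h means were below 1, and the difference was 1.26 (SE 0.20, adjusted p = 0.0126). ADY2 (YCR010C), the acetate permease of the same family, had 0.17, -0.47, -0.18 and -1.01 and 0.96, 0.94, 0.96, 1.84 and 1.34. Here the mean ratio turned from below to above 0, with a difference of 1.59 (SE 0.27, adjusted p = 0.0175). The third family member, ATO3, had values on 3 slides of 24 h (-0.55, 0.21 and -0.28 for A, C and D) and 0.57, 0.94, 1.50, 1.38 and 1.76 at 48 h, without overlap, and its difference of 1.44 (SE 0.29) missed the threshold with an adjusted p of 0.0621.

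ADY2 and ATO2 were the members that passed in the list of glyoxylate cycle, gluconeogenesis and nonfermentable carbon genes, with 2 of 26 rising and 0 falling, compared with 0.335% of all ORFs that rose. The list had the highest median difference of all lists, 0.45, and 20 of its members had a positive difference, compared with 46.3% of all ORFs tested. The median was 0.24 within the set of both replicates A, 0.60 within the largest set and 0.17 within the set of 24 h C and 48 h B. Without replicate D of 24 h no member passed, and without replicate B of 48 h 5 did. IDP3, the peroxisomal isocitrate dehydrogenase, had 0.86 (adjusted p = 0.0745), MLS1, the malate synthase of the glyoxylate cycle, 0.80 (adjusted p = 0.283), and IDP2, the cytosolic isocitrate dehydrogenase, 0.67 (adjusted p = 0.283). The gluconeogenic genes PCK1 and FBP1 each had 0.11 and the glyoxylate cycle gene ICL1 0.46, and none of them passed. Transcripts of the regulators CAT8, ADR1 and SIP4 had differences of -0.10, -0.0067 and -0.16 and did not pass (lowest adjusted p 1).

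Ethanol and acetate metabolism showed positive differences in 13 of 15 members, with a median of 0.25, while PDC6 and ACS2 had -0.24 and -0.36. None of them passed, with 0 of 15 members called. Of all ORFs tested, 0.547% were called. ADH2, the alcohol dehydrogenase that consumes ethanol and is repressed by glucose, had -0.16, -0.021, -0.27 and -0.40 at 24 h and 1.51, 0.54, 0.82, 0.66 and 0.73 at 48 h. Its times did not overlap, the difference was 1.06 (SE 0.21), and the adjusted p of 0.0506 was the nearest of all to the threshold from outside. ALD4, the mitochondrial aldehyde dehydrogenase, had 0.87 (adjusted p = 0.488), ACS1, an acetyl-CoA synthetase, 0.74 (adjusted p = 0.427), and ADH1, the fermentative alcohol dehydrogenase, 0.63 (adjusted p = 0.493).

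In the list of peroxisome and beta-oxidation genes, 0 of 25 members passed, compared with 0.547% of all ORFs tested. A positive difference was seen in 18, and the median was 0.20. PXA1, a subunit of the peroxisomal fatty acid importer, had 1.03 (adjusted p = 0.0909) and ECI1, an enoyl-CoA isomerase, 1.15 (adjusted p = 0.182), both without overlap of slides. POX1, the acyl-CoA oxidase, had -0.76 to -0.29 at 24 h and -0.17, -0.40, 0.73, 1.18 and 0.89 at 48 h. SPS19, a dienoyl-CoA reductase, had 0.0090 to 0.54 and 0.78, 0.11, 1.59, 1.55 and 1.69. In POX1 and SPS19, replicates C, D and E of 48 h, which belong to 1 slide set, were higher than replicates A and B, and the differences were 0.88 (adjusted p = 0.557) and 0.84 (adjusted p = 0.649). The oleate regulators OAF1 and PIP2 had differences of -0.013 and -0.037.

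**Figure D3:**
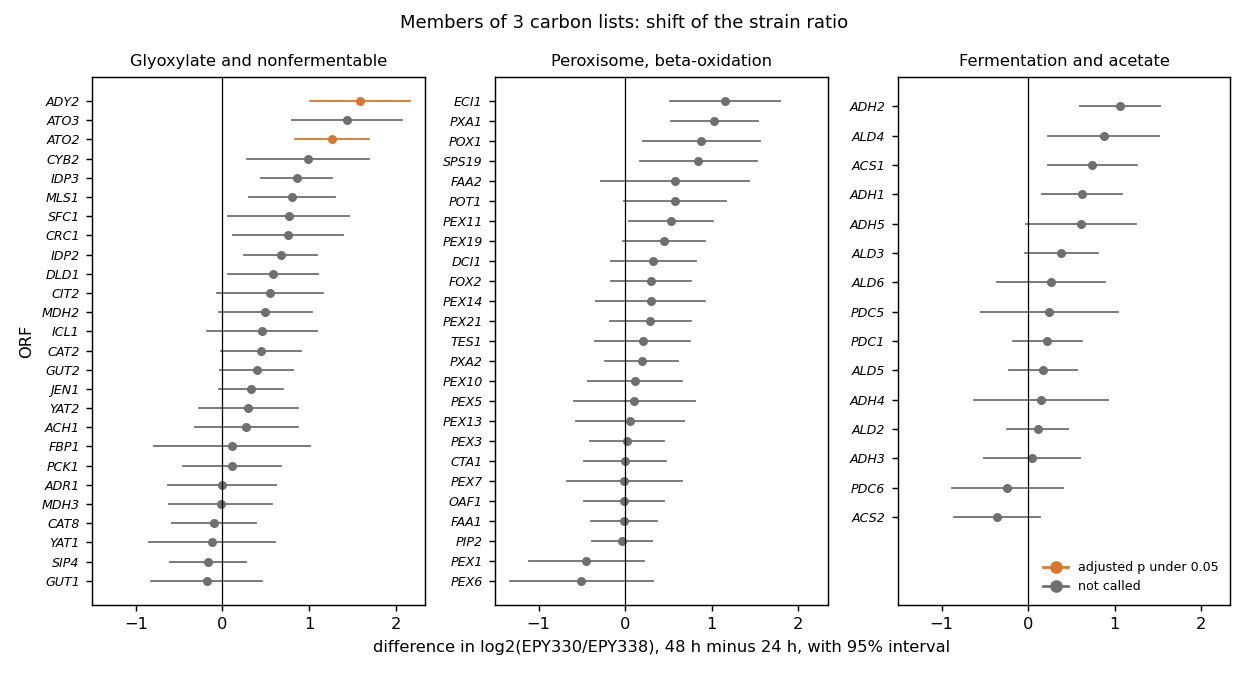
Difference in log2(EPY330/EPY338) of 48 h minus 24 h (x axis, points) with its 95% interval from limma (lines, not adjusted over ORFs) for the members of 3 carbon lists (y axis). ADY2 and ATO2, in orange, passed the test, and the members below 0 are few in each list.

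In the methylcitrate pathway of propionate breakdown 1 gene passed. CIT3 (YPR001W), a mitochondrial citrate and methylcitrate synthase, had -0.24, -0.34, -0.43 and -0.29 at 24 h and 1.34, 0.70, 1.05, 1.83 and 1.27 at 48 h. All 24 h slides were below 0 and all 48 h slides well above it, and the difference was 1.56 (SE 0.22, adjusted p = 0.00666), a 2.96-fold higher ratio. CIT3 was the member that passed among 22 tested genes of the TCA cycle, compared with 0.335% of all ORFs that rose. The median difference of that list was 0.022. PDH1, a methylcitrate dehydratase and the next annotated gene on chromosome XVI, had 0.46, 0.29, 0.29 and 0.10 and 0.96, 0.66, 1.42, 1.43 and 1.53. These slides did not overlap, and the difference of 0.91 (SE 0.21) missed the threshold (adjusted p = 0.105). ICL2, the methylisocitrate lyase, with 4 annotated genes between it and PDH1, had -0.52 to 0.25 at 24 h and 1.60, 0.36, 0.26, 0.27 and 0.17 at 48 h. Replicate A stood apart from the other 48 h slides of ICL2, whose difference was 0.76 (adjusted p = 0.694).

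The metallothionein genes rose together. CUP1-1 (YHR053C) had 0.57 on replicate D and 0.98 to 1.01 on the others at 24 h and 1.57, 1.80, 2.42, 2.63 and 2.74 at 48 h, and CUP1-2 (YHR055C) had 0.71, 0.90, 0.93 and 0.51 and 1.55, 1.96, 2.40, 2.47 and 2.21. The copper-binding proteins they encode are identical, the ORFs are copies of a repeat on chromosome VIII, and a spot of one reports both. No 24 h slide reached the lowest 48 h slide in either. The differences were 1.34 (SE 0.26, adjusted p = 0.0388) and 1.35 (SE 0.22, adjusted p = 0.0126).

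Enzymes of other pathways were also among the ORFs that gained. MTD1 (YKR080W), the cytosolic methylenetetrahydrofolate dehydrogenase of one-carbon metabolism, had -0.11, 0.81, 0.028 and 0.14 at 24 h and 2.19, 1.76, 2.03, 3.65 and 1.92 at 48 h. Replicate D of 48 h was far above the other slides of its time, all of which were above every 24 h slide, and the difference was 2.09 (SE 0.35, adjusted p = 0.0175). NQM1 (YGR043C), a transaldolase related to the pentose phosphate enzyme Tal1, had -0.65, -0.95, -0.56 and -0.96 and 0.47, 0.31, 0.38, 1.12 and 1.30. Its mean ratio went from below to above 0, with a difference of 1.50 (SE 0.24, adjusted p = 0.0126). DUG2 (YBR281C), a subunit of the glutathione-degrading complex, had 0.091 to 0.58 at 24 h and 1.01 to 1.60 at 48 h, with a difference of 0.96 (SE 0.18, adjusted p = 0.0388).

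ZEO1 (YOL109W), a peripheral protein of the plasma membrane linked to cell wall integrity, had -0.22, 0.27, 0.084 and 0.25 at 24 h and 0.85, 1.33, 1.39, 1.63 and 1.52 at 48 h, and the difference was 1.25 (SE 0.20, adjusted p = 0.0136). TPO2 (YGR138C), a polyamine transporter, had 0.39, -0.42, 0.076 and -0.26 and 1.30, 0.65, 1.05, 1.07 and 1.13, with 1.09 (SE 0.21, adjusted p = 0.0388). Neither had overlapping slides. TPO2 was the member that passed among 14 drug:proton antiporters (median difference 0.0027), compared with 0.335% of all ORFs that rose. MCM21 (YDR318W), a kinetochore protein, had -0.25, -0.31, -0.50 and -0.15 and 0.58, 0.80, 1.80, 1.75 and 2.05. The 48 h slides of MCM21 split into 2 lower ones (A and B) and 3 higher ones, all above 24 h, and the difference was 1.70 (SE 0.29, adjusted p = 0.0193). ECM5 (YMR176W), a protein with a JmjC domain and a PHD finger, had -0.23 to 0.17 at 24 h and 0.74 to 1.06 at 48 h, with 0.91 (SE 0.17, adjusted p = 0.0286), and has 1 annotated gene between it and SIP18.

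Of the 19 ORFs that rose, 2 had no entry in the annotation used and are given no role. YFL013W-A had 0.87, 0.42, 0.81 and 0.67 at 24 h and 2.06, 1.66, 2.72, 3.03 and 2.23 at 48 h, a difference of 1.65 (SE 0.26, adjusted p = 0.0126). By its systematic name it lies beside YFL014W, which is HSP12, and on both ORFs replicates C, D and E of 48 h were the highest slides. YGR051C had -0.50, -0.54, -0.58 and -0.64 and 0.84, 0.26, 0.45, 0.82 and 1.10, a difference of 1.26 (SE 0.20, adjusted p = 0.0126). Which strand a spot reports is not given in the sources used here, so transcripts of overlapping ORFs cannot be told apart.

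**Figure D4:**
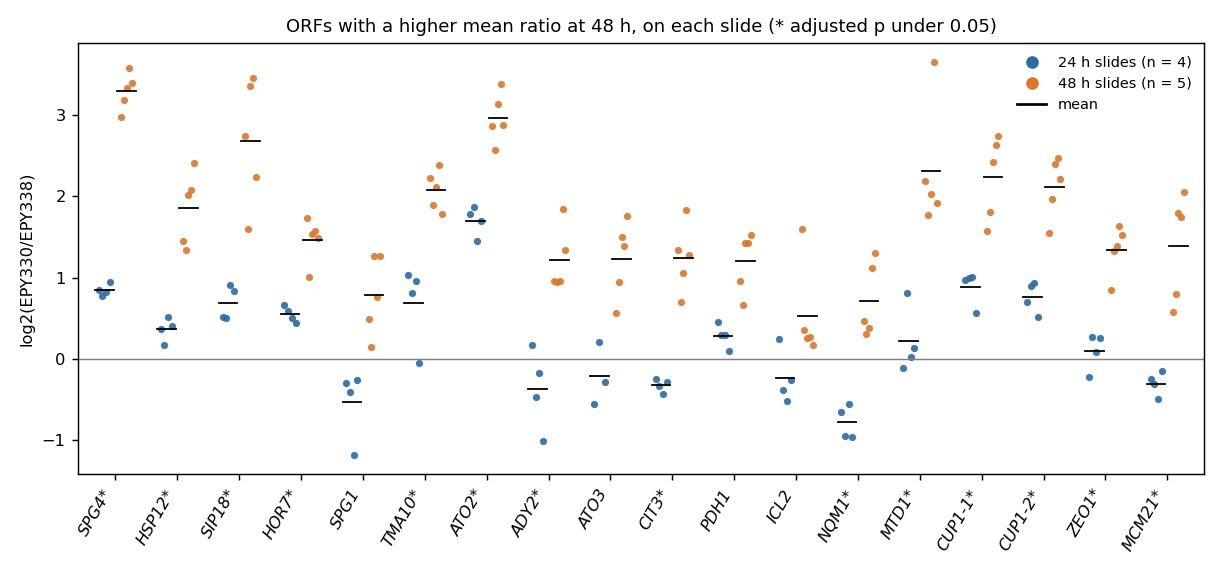
Log2(EPY330/EPY338) on each slide (y axis) of ORFs with a higher mean at 48 h, with 4 slides of 24 h in blue (3 for ATO3), 5 of 48 h in orange and the mean as a bar. ORFs with an asterisk passed the test and have no overlap between the times. SPG4 has the widest gap, and in ICL2 a single 48 h slide is high.

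In the 3 lists of the drug resistance network, which leave out its target HXT9 described above, no member passed. Of all ORFs tested, 0.547% did. Of 9 tested ABC transporters, 7 had a negative difference, and the median was -0.41, below that of every other list but the maltose and isomaltose genes. SNQ2, a multidrug pump, had 3.07, 2.66, 2.69 and 2.46 at 24 h and 0.98, 1.48, 2.12, 2.27 and 2.30 at 48 h. The times did not overlap, and the difference of -0.89 (SE 0.28) had an adjusted p of 0.391. The pumps YOR1 and PDR15 had differences of -0.76 (adjusted p = 0.412) and -0.67 (adjusted p = 0.481). PDR5, the main drug pump, had 3.26, 2.39, 3.49 and 3.54 and 2.67, 1.61, 2.50, 2.53 and 3.17, with overlapping slides and -0.68 (SE 0.31, adjusted p = 0.906). The mean ratios of PDR5, PDR15, SNQ2 and YOR1 at 48 h were 2.50, 2.48, 1.83 and 1.58, and all 4 were above 1. Without replicate D of 48 h the median of the ABC transporters was -0.63.

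The 9 regulators of the network had differences between -0.26 and 0.21 (median -0.023). The 13 other targets lay between -1.06 and 0.65 (median -0.072). ICT1, a lysophosphatidic acid acyltransferase, had 3.40, 3.57, 3.17 and 3.65 at 24 h and 2.54, 1.66, 3.05, 2.26 and 2.43 at 48 h, without overlap, and the difference of -1.06 (SE 0.25) missed the threshold (adjusted p = 0.124). YPL088W, a putative aryl alcohol dehydrogenase, had -1.01 (adjusted p = 0.485), with replicate D of 48 h far below its other slides. RTA1, linked to resistance against aminocholesterol, had the opposite sign with 0.65 (adjusted p = 0.745).

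None of the 12 engineered and marker loci passed, compared with 0.547% of all ORFs tested. Their median difference was -0.022 with a range of -0.90 to 1.01. A spot of an engineered gene does not separate the engineered allele from any native copy. The ends of the range were HMG2, given above, and HIS3. HMG2 is in the list although the genotype of the strains names no change at that gene. HIS3, the histidine marker gene, had 0.21, 0.68, 0.0022 and 0.28 at 24 h and 0.94, 0.43, 1.38, 1.77 and 2.01 at 48 h. HIS3 slides overlapped through replicate B of 48 h, and the difference was 1.01 (adjusted p = 0.317). The 9 tested genes of the galactose regulon, whose GAL1 promoter drives several of the engineered genes, had a median of -0.069 and lay between -0.49 and 0.52. Medians of the mevalonate pathway (11 genes) and of the steps from squalene to ergosterol (19 genes) were 0.074 and -0.041.

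Heat shock chaperones had 23 of 30 differences above 0, 0 calls (compared with 0.547% of all ORFs tested) and a median of 0.14. The median was 0.25 within the largest slide set but -0.014 within the set of both replicates A and -0.11 within that of 24 h C and 48 h B. HSP26, a small heat shock chaperone, had -1.49, -1.38, -1.31 and -1.21 at 24 h and -0.93, -0.98, 0.039, -0.16 and -0.35 at 48 h, lower in EPY330 at 24 h and less so at 48 h, without overlap (0.87, adjusted p = 0.216). The inducible Hsp70 genes SSA3 and SSA4 had 0.84 (adjusted p = 0.298) and 0.82 (adjusted p = 0.408), and HSP30, which encodes a plasma membrane protein, 0.73 (adjusted p = 0.283). The heat shock factor gene HSF1 had 0.22 (adjusted p = 1). In glycerol synthesis, the phosphatase genes GPP2 and GPP1 had 0.87 (adjusted p = 0.149) and 0.92 (adjusted p = 0.306) and the dehydrogenase gene GPD2 0.72 (adjusted p = 0.476), none past the threshold, and the 14 genes of the glycerol and osmotic list had a median of 0.088. GLN1, glutamine synthetase, and HMX1, heme oxygenase, had 1.32 (adjusted p = 0.105) and 0.89 (adjusted p = 0.0645). Their times did not overlap, but the gap between the times was only 0.0042 for GLN1, against 0.37 for HMX1. On the negative side were HAP4, the activating subunit of the regulator of respiratory genes, with -0.65 (adjusted p = 0.485), and TPS3, a regulatory subunit of trehalose synthase, with -0.70 (adjusted p = 0.267), without overlap either.

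Across all 48 lists, 8 had a called member and 40 had none. The lists without a call had medians between -0.41, the ABC transporters, and 0.25, fermentation and acetate, and 40 of the 48 medians lay within 0.2 of 0. Among other lists, the 127 cytosolic ribosomal proteins had a median of 0.070 with values between -0.41 and 0.58, the 36 proteasome genes 0.071, the 24 respiratory chain genes 0.21, the 13 ATP synthase genes 0.21 and the 20 trehalose and glycogen genes -0.18. The cytosolic ribosomal protein and respiratory chain lists had 0 calls in either direction, compared with 0.547% of all ORFs called. Within the set of both replicates A, the largest set and the set of 24 h C and 48 h B, the medians were -0.050, 0.096 and -0.046 for the cytosolic ribosomal proteins, 0.029, 0.10 and -0.18 for the proteasome, 0.11, 0.26 and -0.090 for the respiratory chain and -0.090, 0.29 and -0.037 for ATP synthase, so that each of these 4 lists had a negative median in at least 1 set.

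**Figure D5:**
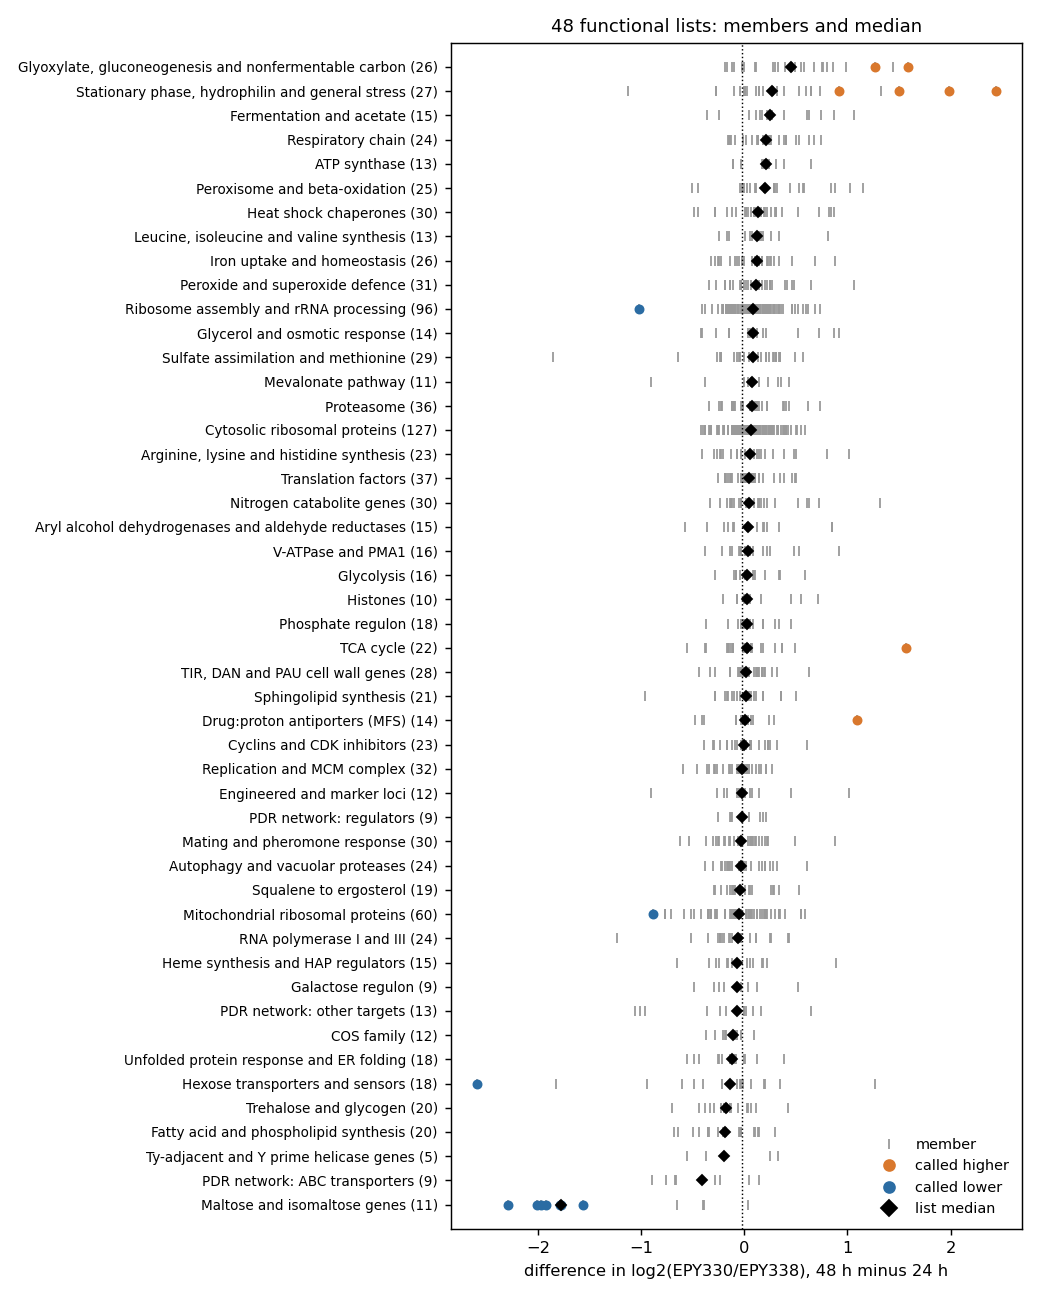
Difference in log2(EPY330/EPY338) of 48 h minus 24 h (x axis) for the tested members of 48 functional lists (y axis, number tested in parentheses), as ticks, with called members as circles (orange higher, blue lower), the list median as a diamond and the median of all ORFs as a dotted line. The maltose and isomaltose genes stand at the lower end and the glyoxylate and nonfermentable carbon genes at the upper end, and most medians lie close to the dotted line.

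The levels from which the ORFs moved differed between the directions. Of the 12 that fell, 11 had a mean ratio above 1 at 24 h, and at 48 h 3 were above 1, 8 between 0 and 1 and 1 below 0. Of the 19 that rose, 1 was above 1 at 24 h, 11 were between 0 and 1 and 7 at or below 0, and at 48 h 16 were above 1 and 3 between 0 and 1. None of the 31 had a mean ratio below -1 at either time. The 24 h and 48 h means enter the difference, so these counts describe the called ORFs and are no separate evidence. Over all ORFs tested, a mean ratio more than 2-fold higher in EPY330 was seen in 290 at 24 h and 329 at 48 h, with 201 in common (69.3% of the former and 61.1% of the latter). A ratio more than 2-fold lower was seen in 104 and 198, with 82 in common (78.8% and 41.4%). The SD over ORFs was 0.53 to 0.71 on the 24 h slides and 0.54 to 0.88 on the 48 h slides. How far the counts at 48 h follow from this spread was not tested.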

How the data were processed

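Each of the 14 slides compared pooled total RNA of EPY330 and EPY338. The authors extracted spot intensities with GenePix Pro, removed artifactual spots, spots weak in both channels and spots missing too often, and normalized by lowess in BRB-ArrayTools. The deposited values are log2 ratios of EPY338 over EPY330, 1 per ORF and slide, without intensities, so signal over background was not assessed, and precision is limited by how many slides there are. Lowess sets the bulk of the ratios at each intensity to 0, so a shift shared by most ORFs is removed.

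Signs were reversed to give log2(EPY330/EPY338). ORFs with a value on at least 3 slides at 24 h and at 48 h were fitted in limma 3.58.1 (R 4.3.3) with time as the group and no block, two-sided, Benjamini-Hochberg over all 5672 ORFs, and called at an adjusted p below 0.05. The methods state no test between times. Lists were described by counts and medians without a test. On simulated slides with the gaps of the table, independent noise per slide and large shifts, the fit was checked for recovery of shifted ORFs. That check does not cover smaller shifts, or slides that deviate together in sets as these do. Tables and plots were made with pandas 2.3.3, matplotlib 3.10.9 and numpy 2.4.6 under Python 3.11.15. RefSeq names matched 5546 ORFs, and 5 of 1248 list entries had no match.

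The members, the 48 lists and the tests were chosen with earlier results of these data known. Named are the 15 largest rises and falls among called ORFs with 9 values and no overlap (filled up by p for the falls), all other called ORFs, up to 6 members of a described list by p with its regulators, and neighbours or paralogs of called ORFs, which were chosen after their values were seen. Alternatives were all 14 slides, complete ORFs, at least 2 slides, median centring, scaling, slide weights, robust regression, removal of a trend along the ORF order, a replicate block, stricter limits, and each slide left out. A slide set block was added after seeing the data.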

Additional observations from a re-analysis of the deposited data

Results flagged for a closer look

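Within the 4 or 5 slides of a time, 13 of 181 groups of values of the named ORFs held a slide that stood apart from the others by Dixon's criterion, which chance alone meets in about 1 of 20 groups. Among the ORFs that passed the test these were MTD1, where replicate D of 48 h was 3.65 and the others 1.76 to 2.19, CUP1-1, where replicate D of 24 h was 0.57 and the others 0.98 to 1.01, and UTP20, where replicate B of 48 h was 0.30 and the others 0.60 to 0.68. All 3 had no overlap between the times with these slides included.

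The other 10 were in ORFs that did not pass. Replicate B of 48 h stood apart in MAL13 with -2.21 (others -1.23 to -0.98), in YIL171W with 1.82 (others 0.34 to 0.64) and in GLN1 with 0.83 (others 1.78 to 1.89). Replicate A of 48 h stood apart in ADH2 with 1.51 (others 0.54 to 0.82), in ICL2 with 1.60 (others 0.17 to 0.36), in MSN2 with 0.80 (others 1.14 to 1.27) and in GIS1 with 0.035 (others 0.49 to 0.60). Replicate D of 48 h stood apart in YPL088W with -0.34 (others 1.18 to 1.52). At 24 h, replicate C stood apart in SPG1 with -1.18 (others -0.41 to -0.26) and in POX1 with -0.76 (others -0.37 to -0.29). Replicates A and B of 48 h and C of 24 h lie outside the largest slide set, as does replicate A of 24 h, which stood apart in none of these ORFs.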

How the results depend on the processing

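The count of 31 called ORFs (19 higher, 12 lower) became 56 (35 and 21) with all 14 slides, 119 (88 and 31) with slide weights, 70 (46 and 24) with robust regression, 51 (34 and 17) with the ORF order trend removed, 90 (60 and 30) with the slide set block, and 8 (2 and 6) at an adjusted p of 0.01. Of the 31, 30, 31, 29, 28 and 31 were among the calls of the first 5 of these. Complete ORFs alone gave 34, at least 2 slides 30, median-centred slides 32 and a difference above 1 in size 27. Leaving out each slide gave 8 to 62 calls (2 to 44 higher, 6 to 18 lower). Slides scaled to a common spread gave 31 (16 and 15), of which 24 were shared. The replicate letters did not pair the slides, since the correlation of deviations over the 4 shared letters ran from -0.53 to 0.64, and with the replicate block 2 ORFs were called (1 higher, 1 lower).

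Called members of the glyoxylate and nonfermentable carbon list numbered 4 with all 14 slides, 1 with scaled slides, 7 with slide weights, 4 with robust regression, 4 with the trend removed, 6 with the slide set block, 0 with the replicate block and 0 to 5 with a slide left out. The stationary phase list had 7 with slide weights, 1 with the replicate block and 1 to 5 with a slide left out. The maltose and isomaltose list had 1 with the replicate block, and 5 to 7 with a slide left out. Of the list medians, that of the Ty-adjacent and Y prime helicase genes was 0.11 with slide weights, compared with -0.19. With a slide left out, medians ranged as follows in 5 lists: -0.63 to -0.33 for the PDR ABC transporters (lowest without replicate D of 48 h), 0.20 to 0.37 for fermentation and acetate, -0.12 to 0.031 for heme synthesis and HAP regulators, -0.14 to -0.035 for RNA polymerases I and III and -0.25 to -0.091 for the COS family.

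Signs turned in 6 ORFs that were never called. MAL31 was -0.034 with slide weights and -0.0080 to 0.15 with a slide left out, and CAT8 -0.20 to 0.0095 with a slide left out. ADR1 was 0.098 with scaled slides, 0.10 with slide weights, 0.071 with robust regression and 0.066 with the trend removed, and -0.16 to 0.22 with a slide left out. GIS1 was -0.070 with scaled slides, -0.036 with the replicate block, -0.015 with the slide set block and -0.091 to 0.10 with a slide left out. OAF1 was 0.015, 0.042 and 0.022 under the same 3 settings and -0.17 to 0.089 with a slide left out. PIP2 was 0.0092 with slide weights, 0.011 with the replicate block and -0.082 to 0.011 with a slide left out. The shares of promoters with motifs planned as an alternative were not run, since no promoter sequence was at hand. A ratio with 4 and 5 slides of single RNA pools bounds neither culture variation nor small shifts, so an ORF without a call is not shown to be unchanged.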

Other observations

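Outside the comparison of 24 and 48 h, the 72 h slides give a further mean for each called ORF, listed here as values without a test. The 48 h mean took part in choosing these ORFs. Of the 19 that rose, 18 had a 72 h mean below their 48 h mean, and 3 of them a 72 h mean below that of 24 h. SPG4 had 2.13 ± 0.51 (SD, n = 5 slides) at 72 h and ATO2 2.01 ± 0.44 (SD, n = 5 slides), while TPO2 stood at -1.20 and MCM21 at -0.40. ADY2, the exception, had 1.23 at 72 h and 1.21 at 48 h. ECM5, counted among the 18, had 0.88 at both times, so neither ORF shows a clear change from 48 to 72 h. Of the 12 that fell, 8 had a 72 h mean below that of 48 h and 4 above it. HXT9 had 0.50 ± 0.25 (SD, n = 5 slides), MAL12 -0.098 and IMA4 0.49, and YNR014W, which was among the 4, had 0.81.

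Just outside the threshold, 16 ORFs had an adjusted p between 0.05 and 0.1, of which 13 had a positive and 3 a negative difference, and all 16 had no overlap between the times. Among them were ADH2, ATO3, SPG1, HMX1, IDP3, HXT5 and PXA1 on the positive side.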
